A study of Rattus norvegicus with 24 samples.

Results

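The genes described here encode the nuclear subunits, isoforms and assembly factors of the mitochondrial respiratory chain and of ATP synthase, measured in rat liver after injury by alpha-naphthylisothiocyanate (ANIT). They were taken as every gene whose symbol begins with Nduf, Cox4 to Cox8, Uqcr or Atp5, or is Sdha, Sdhb, Sdhc or Sdhd, and for which the array carried a probe set annotated to that gene alone. Of 13438 genes measured, 83 qualified, and where a gene had several probe sets the one with the highest mean over all arrays was kept. The 83 comprised 38 genes of complex I, 4 of complex II, 7 of complex III, 18 of complex IV and 16 of complex V. A further 36 genes of the reference table that carry such names, Cox6c, Cox7a2, Uqcrb and Atp5f1c among them, had no single-gene probe set and are not analysed here as single genes.

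Liver RNA came from 24 male Sprague Dawley rats aged 8 weeks, 1 rat per array, in 4 groups of 6. The rats were given either ANIT at 50 mg/kg in corn oil or corn oil alone (vehicle), once and by the intragastric route, and were killed 24 h or 120 h later. ANIT damages bile duct cells and hepatocytes in rodents, and the labels describe the earlier time as the peak of injury and the later one as repair. Rats of every group, controls included, were fasted overnight before necropsy, received BrdU shortly before it and were killed with CO2. The tissue was whole liver, so fewer cells of a type and less RNA per cell cannot be told apart. The 9 hepatocyte markers measured, albumin among them, averaged between 12.5 and 12.7 on the log2 scale on every array, as befits liver tissue.

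Complexes I and II feed electrons from NADH and succinate to ubiquinone, complex III passes them to cytochrome c and complex IV hands them to oxygen. Complexes I, III and IV pump protons across the inner mitochondrial membrane, and ATP synthase, complex V, lets them back through a rotating ring of c subunits to make ATP. Liver is rich in these complexes because hepatocytes meet the cost of urea, glucose and bile acid production largely from oxidative phosphorylation, and most of the subunits are encoded in the nucleus.

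At 24 h most of the 83 genes stood slightly higher after ANIT, and few of them passed the test. The median log2 difference between ANIT and vehicle was 0.21 (the median of all 13438 genes was 0.00), and it was positive for 75 of the 83. With limma's moderated test, adjusted by Benjamini-Hochberg over all genes, 9 of the 83 rose (10.8%) and 1 fell (1.20%) at an adjusted p under 0.05. Over all genes 12.9% rose and 5.31% fell, so the share that rose was no greater than the background. The groups did not overlap, with all 6 ANIT rats above all 6 vehicle rats, for 7 of the genes, against 5.54% of all genes, and 1 gene had all ANIT rats below, against 2.32% of all genes. Leaving out 1 array at a time, the number of the 83 genes that passed ran from 2 without ANIT replicate 6 to 25 without vehicle replicate 1. In those fits 1829 and 3534 of all 13438 genes passed. It was 3 without vehicle replicate 2 (2232 of all genes) and 4 without ANIT replicate 1 or vehicle replicate 3 (1905 and 1949). Without ANIT replicate 3 or vehicle replicate 4 it was 5 (2071 and 1959). The largest rise was that of Atp5mc1, a gene for the c ring of ATP synthase, and the fall was that of Cox4i2, an isoform of complex IV. The plot of changes by complex shows both genes apart from the rest.

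**Figure D1:**
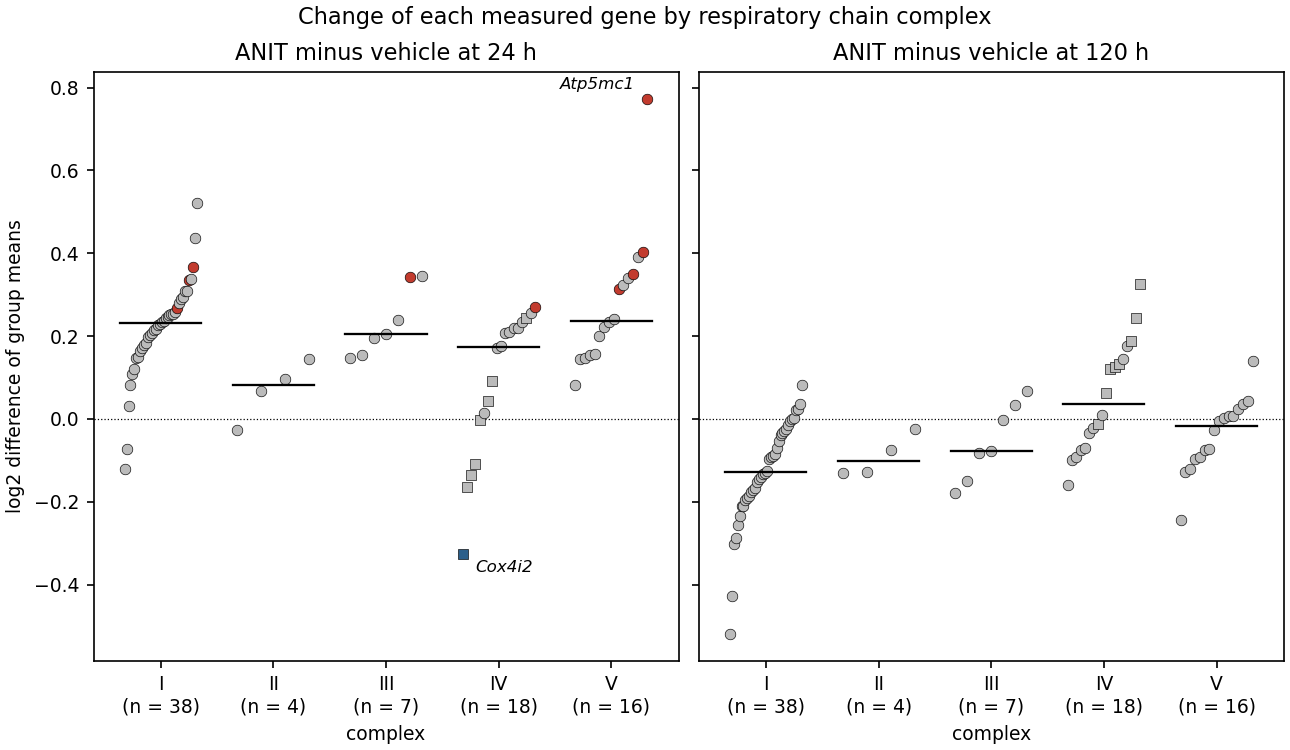
Log2 difference of group means (ANIT minus vehicle, vertical axis) for each of the 83 genes, by complex (horizontal axis), at 24 h on the left and at 120 h on the right. Red points rose and the blue point fell at an adjusted p under 0.05, grey ones did not pass, squares are tissue isoforms and the pseudogene, and black bars are medians. Atp5mc1 at 0.77 and Cox4i2 at -0.33 lie apart from the rest at 24 h, and no point is coloured at 120 h.

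The level of these genes also followed a technical property of the arrays. The spiked hybridisation controls are bacterial and bacteriophage transcripts added in fixed amount to each sample. At 24 h they averaged 11.01 ± 0.38 (SD, n = 6, log2) in the vehicle group and 10.64 ± 0.27 (SD, n = 6) in the ANIT group. The mean of the 83 genes on an array correlated with that control level at r = -0.86 (Spearman's rho = -0.89, n = 24 arrays), and at -0.77, -0.94, -0.50 and -0.96 within vehicle 24 h, ANIT 24 h, vehicle 120 h and ANIT 120 h. The points share the array's own scale, and without the 2 arrays farthest from the median control level r was again -0.86. Of the 83 genes 78 (94.0%) correlated negatively with the control level, against 61.6% of all genes and 90.3% of the 3360 genes with the highest levels. These were all 75 genes that are not tissue isoforms or the pseudogene, and 3 of the other 8. The mean of those 8, Cox4i2 and Cox6a2 among them, correlated with the control level at r = 0.67 (n = 24 arrays). Those 3360 genes had a median difference of 0.13 at 24 h, with 838 rising and 392 falling.

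**Figure D2:**
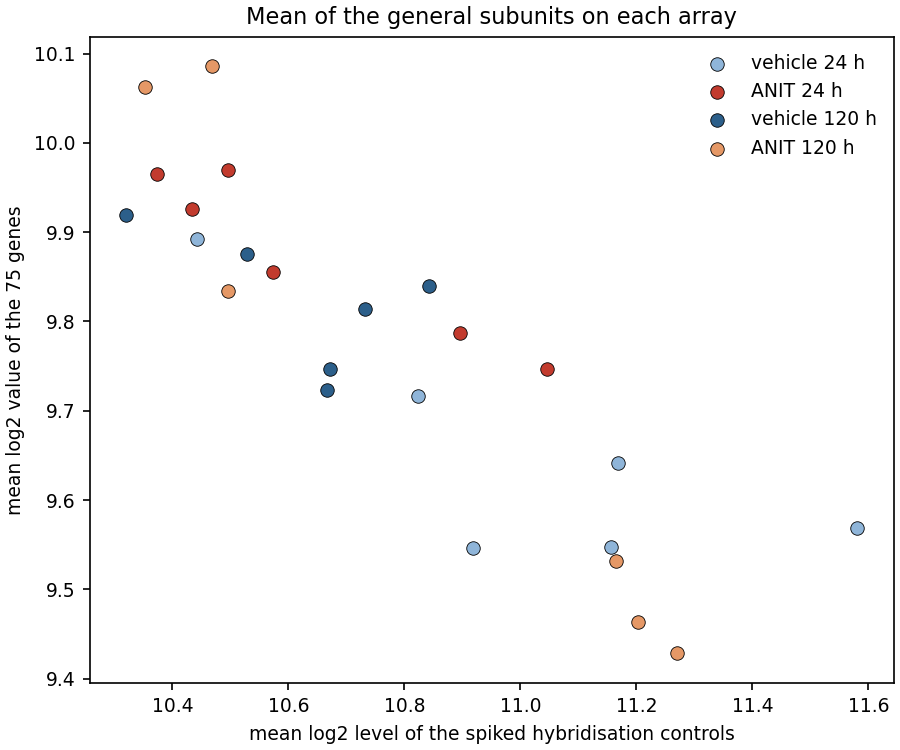
Mean log2 value of the 75 general subunits and assembly factors on each array (vertical axis) against the mean log2 level of the spiked hybridisation controls on that array (horizontal axis), 1 point per rat, coloured by group. The points run from upper left to lower right in all 4 groups, with the ANIT 120 h rats spanning 9.43 to 10.09 on the vertical axis.

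With the control level as a covariate in the same model, the median difference of the 83 genes at 24 h was 0.05, and 4 genes passed. Atp5mc1 and Cox6a2 were then higher, while Cox4i2 and Ndufc1 were lower (8.94% of all genes were higher and 10.6% lower in that fit). The median stayed above 0 under each of the other 11 alternatives, between 0.03 and 0.22. The log2 ratio of the 3′ to the 5′ beta-actin probe sets, the only such ratio examined, also differed at 24 h. It was 3.12 ± 0.07 (SD, n = 6) after ANIT and 2.84 ± 0.05 (SD, n = 6) after vehicle. An exact two-sided permutation test gave p = 0.0022 (the smallest value 6 against 6 arrays can give, and 0.013 after adjustment over 6 tests). With that ratio as the covariate, 0 of the 83 rose and only Cox4i2 fell (3.44% of all genes rose and 3.31% fell). The ratio did not overlap between the 24 h groups (2.98 to 3.18 after ANIT, 2.77 to 2.91 after vehicle). That fit can therefore hardly tell treatment from the ratio at 24 h. What part the array or the RNA has in the 24 h differences was not tested further.

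**Figure D3:**
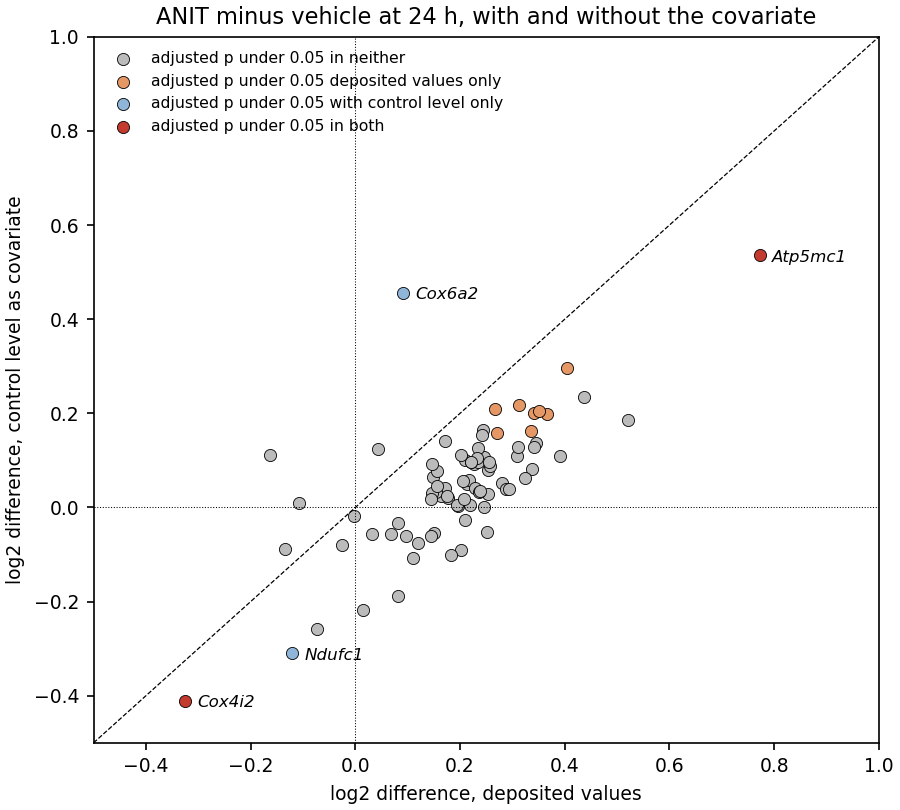
Log2 difference between ANIT and vehicle at 24 h for each of the 83 genes in the deposited values (horizontal axis) and with the hybridisation control level as a covariate (vertical axis), with the dashed line marking equality. Most points fall below the line and close to 0, and Atp5mc1 and Cox4i2 passed the test in both fits.

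Atp5mc1 encodes the proton-carrying c subunit of ATP synthase. In mammals this subunit is encoded by a family of nuclear genes whose mature proteins are identical and whose mitochondrial targeting sequences differ, and rat Atp5mc1, Atp5mc2 and Atp5mc3 belong to it. On the log2 scale Atp5mc1 ranged from 8.86 to 9.54 (median 9.24) in vehicle rats and from 9.82 to 10.10 (median 10.01) in ANIT rats at 24 h. Every ANIT rat was above every vehicle rat. The difference was 0.77 ± 0.14 (SE), a 1.71-fold rise, with an adjusted p of 0.00029. At 120 h the 6 vehicle rats lay between 9.30 and 9.54 (median 9.39) and the 6 ANIT rats between 8.87 and 9.85 (median 9.23). The groups overlapped again, with ANIT rats on both sides of the vehicle range, and the difference was -0.07 ± 0.14 (SE, adjusted p = 0.84).

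Atp5mc3 was the only other c-subunit gene with a single-gene probe set. It ranged from 11.995 to 12.19 (median 12.03) in vehicle rats and from 12.16 to 12.27 (median 12.19) in ANIT rats at 24 h. Its groups overlapped at the edge, and the difference of 0.15 ± 0.07 (SE) did not pass in the deposited values (adjusted p = 0.15). It passed after quantile normalization (0.17, adjusted p = 0.048) and with a trended, robust variance (0.15, adjusted p = 0.037). A probe set shared by Atp5mc2 and its copy Atp5mc2l1, which was not tested, differed by 0.02. Within each array, the log2 value of Atp5mc1 minus that of Atp5mc3 lay between -3.16 and -2.65 in vehicle rats and between -2.38 and -2.10 in ANIT rats at 24 h, so the ranges of the groups did not overlap. The Atp5mc1 difference was 0.54 with the control level as covariate (adjusted p = 0.00022). With the actin ratio, which did not overlap between the 24 h groups, it was 0.61 and no longer passed (adjusted p = 0.087). It passed under the other 11 alternatives, the control level included, and with any 1 array left out. Among arrays of middle spread the difference was 0.64 (3 ANIT and 2 vehicle rats), and among those of wide spread 0.52 (3 ANIT rats and 1 vehicle rat), both values without a test. RefSeq lists the further copies Atp5mc1l1 and Atp5mc1l2, and whether their transcripts bind the same probes was not tested.

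**Figure D4:**
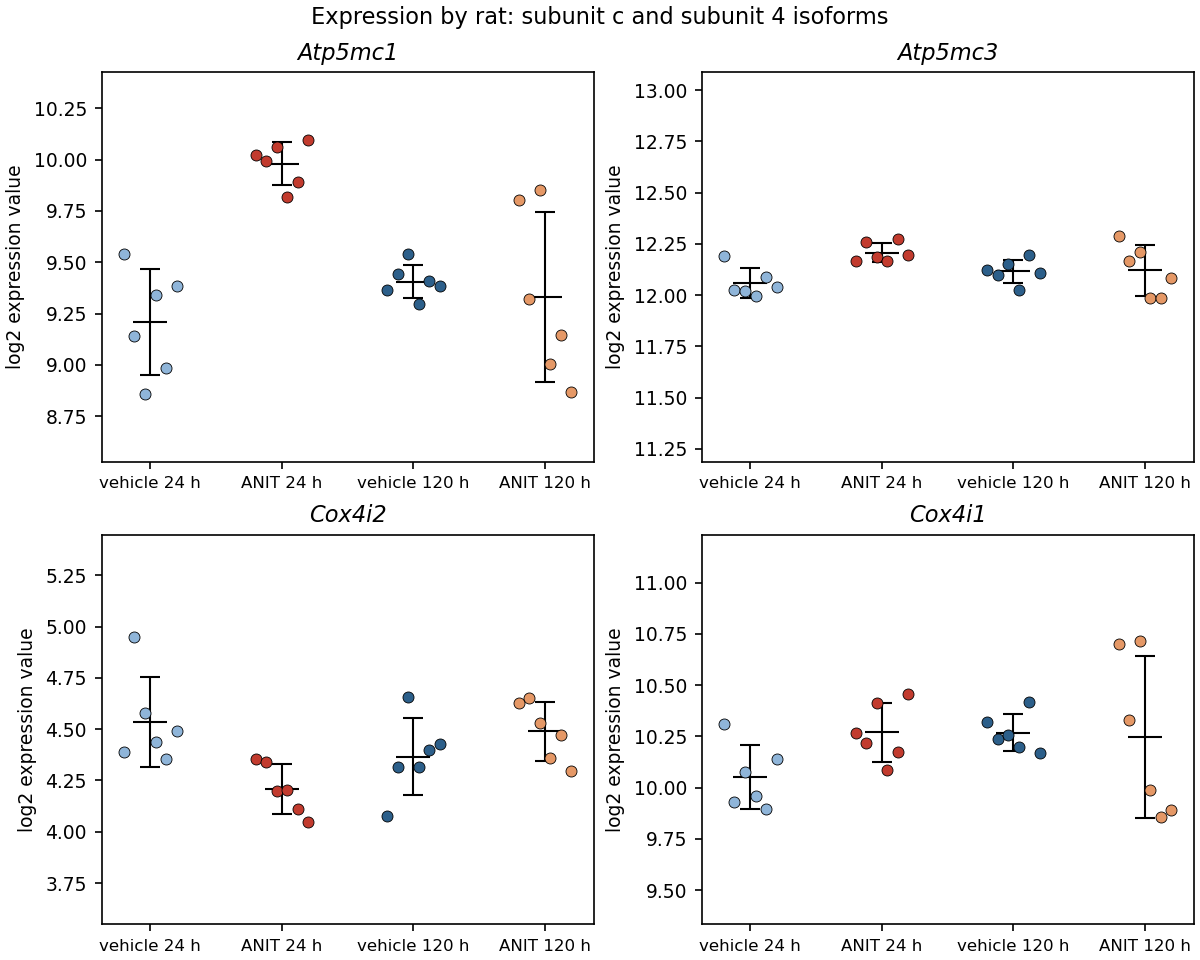
Log2 expression value (vertical axis, spanning the same number of log2 units in each panel) of Atp5mc1, Atp5mc3, Cox4i2 and Cox4i1 in each rat, by group (horizontal axis), with 1 point per rat and black bars for the mean and 1 SD (n = 6). At 24 h the ANIT rats lie wholly above the vehicle rats for Atp5mc1 and wholly below them for Cox4i2, while the groups overlap for Atp5mc3 and Cox4i1.

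The promoter windows of Atp5mc1, Atp5mc3 and Atp5mg are shown because the first gene rose apart from the second and Atp5mg was, of the called genes, one whose window held several of the motifs searched. They come from RefSeq (build GRCr8), run 5′ to 3′ on the gene's own strand from 250 bases before to 50 after the annotated start, and all lie on the minus strand. Capitals mark matches, on either strand, to short cores of factors known to act on mitochondrial genes: GCGCATGC for NRF1, CCGGAAG for the ETS family that includes GABP, AAGGTCA for the estrogen-related receptors and AAGATGG for YY1.
Atp5mc1, chr10:81523296-81523595: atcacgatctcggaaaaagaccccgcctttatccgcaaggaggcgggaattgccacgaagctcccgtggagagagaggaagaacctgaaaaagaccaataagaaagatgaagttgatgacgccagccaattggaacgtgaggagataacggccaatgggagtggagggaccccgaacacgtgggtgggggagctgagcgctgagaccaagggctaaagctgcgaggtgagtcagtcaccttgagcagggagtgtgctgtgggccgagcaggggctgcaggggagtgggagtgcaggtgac
Atp5mc3, chr3:79220615-79220914: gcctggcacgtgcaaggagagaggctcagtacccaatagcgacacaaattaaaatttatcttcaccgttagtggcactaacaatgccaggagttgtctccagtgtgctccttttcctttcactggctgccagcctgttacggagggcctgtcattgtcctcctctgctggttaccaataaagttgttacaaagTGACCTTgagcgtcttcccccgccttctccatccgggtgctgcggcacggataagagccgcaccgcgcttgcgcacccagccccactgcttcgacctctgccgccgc
Atp5mg, chr8:54130358-54130657: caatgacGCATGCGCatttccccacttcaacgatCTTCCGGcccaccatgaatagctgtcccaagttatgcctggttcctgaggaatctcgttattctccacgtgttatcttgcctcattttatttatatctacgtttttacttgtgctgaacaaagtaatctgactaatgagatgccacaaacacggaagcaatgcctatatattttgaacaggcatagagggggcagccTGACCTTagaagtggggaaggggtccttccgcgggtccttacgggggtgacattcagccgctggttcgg
Atp5mc1 held 0 matches, Atp5mc3 held 1 ERR core, and Atp5mg held 1 NRF1, 1 ETS and 1 ERR core, with no overlap between them. Windows were found for 76 of the 83 genes. Of these, 11.8% held the NRF1 core, 28.9% the ETS core, 13.2% the ERR core and 25% the YY1 core, against 2.66%, 9.22%, 4.37% and 7.3% of the 27457 windows in the table. Among the 11058 windows of genes measured on the array the shares were 4.35%, 15.2%, 3.07% and 7.8%. At least 1 of the cores occurred in 41 of the 76 windows. A match describes these letters only.

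Of the other genes of ATP synthase, 3 rose at 24 h. All 3 encode small membrane subunits that sit beside the c ring and hold the synthase in dimers. Of the 5 genes measured for membrane accessory subunits, these 3 rose and 2, Atp5me among them, did not pass (12.9% of all genes rose). The 5 differences lay between 0.14 and 0.40. Atp5mk ranged from 10.31 to 10.77 (median 10.65) in vehicle rats and from 10.86 to 11.16 (median 10.99) in ANIT rats, a difference of 0.40 ± 0.12 (SE, adjusted p = 0.016). Atp5mg ranged from 10.23 to 10.55 (median 10.40) and from 10.64 to 10.85 (median 10.76), a difference of 0.35 ± 0.11 (SE, adjusted p = 0.025). Neither gene's groups overlapped. Atp5mf ranged from 10.89 to 11.27 (median 11.05) and from 11.23 to 11.48 (median 11.39), with overlap, a difference of 0.31 ± 0.10 (SE, adjusted p = 0.022). Once the control level was a covariate the 3 differences were 0.30, 0.20 and 0.22 and did not pass (adjusted p = 0.066, 0.13 and 0.091). Atp5mk passed with any 1 array left out, Atp5mg did not pass without ANIT replicate 1 or 6 or vehicle replicate 2 or 3 (highest adjusted p = 0.062), and Atp5mf did not pass without ANIT replicate 6 or vehicle replicate 4 or 6 (highest adjusted p = 0.062). RefSeq also lists copies of Atp5mg and Atp5mk, whose part in these signals was not tested.

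The catalytic head and the stalks of ATP synthase did not pass in the deposited values. Atp5f1a and Atp5f1b, the alpha and beta subunits that form the catalytic sites, differed by 0.16 and 0.08 at 24 h (adjusted p = 0.20 and 0.54). Their ANIT rats ranged from 10.79 to 10.99 and from 11.35 to 11.52, against 10.66 to 10.82 and 11.18 to 11.51 in vehicle rats. Atp5f1d, the delta subunit of the central stalk, had the largest difference of the head and stalk genes at 0.39 ± 0.16 (SE, adjusted p = 0.084). Peripheral stalk genes Atp5pb, Atp5pd, Atp5pf and Atp5po, which keep the head from turning with the ring, differed by 0.20 to 0.34. In alternative fits Atp5f1d passed as higher in 1 of 12, Atp5pd in 4 and Atp5po in 3. Atp5if1, which blocks ATP hydrolysis when the proton gradient fails, differed by 0.32 ± 0.16 (SE, adjusted p = 0.17). Of the alternatives it passed, as higher, only where probe sets were averaged (adjusted p = 0.047). All 16 genes of complex V were above 0, with a median of 0.24 (0.11 with the control level as covariate).

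In complex I, the entry point for NADH, 3 of 38 genes rose and 0 fell (12.9% of all genes rose and 5.31% fell). Ndufa5, an accessory subunit of the peripheral arm, ranged from 7.66 to 8.17 (median 7.72) in vehicle rats and from 8.06 to 8.37 (median 8.14) in ANIT rats, a difference of 0.37 ± 0.13 (SE, adjusted p = 0.047). Ndufb9, an accessory subunit of the membrane arm, ranged from 10.06 to 10.52 (median 10.19) and from 10.43 to 10.63 (median 10.55), a difference of 0.34 ± 0.12 (SE, adjusted p = 0.0498). Ndufaf5, an assembly factor that modifies a core subunit, ranged from 7.34 to 7.60 (median 7.45) and from 7.54 to 7.82 (median 7.77), a difference of 0.27 ± 0.09 (SE, adjusted p = 0.033). In all 3 the groups overlapped at the edge, and with the control level as covariate the differences were 0.20, 0.16 and 0.21 and did not pass (adjusted p = 0.23, 0.26 and 0.097). With 1 array left out the differences stayed at 0.33 to 0.44, 0.31 to 0.40 and 0.24 to 0.31. The calls lay near the threshold, though, and each was lost without any 1 of several arrays. That of Ndufa5 was lost without any 1 of 15 of the 24 arrays and that of Ndufb9 without any 1 of 17, among them in both cases ANIT 24 h replicates 1, 3, 5 and 6 and every vehicle 24 h replicate but 1 (highest adjusted p = 0.12 and 0.11). That of Ndufaf5 was lost without any 1 of 9 arrays, all ANIT 24 h replicates but 5 and vehicle 24 h replicates 2, 3, 5 and 6 (highest adjusted p = 0.085).

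The core subunits of complex I, which carry the flavin and the iron-sulfur clusters, did not pass in the deposited values, 0 of 6 measured. Ndufs1, the largest of them, differed by 0.24 ± 0.12 (SE, adjusted p = 0.19), and Ndufv1, which binds NADH, by 0.31 ± 0.11 (SE, adjusted p = 0.058). Ndufv1 passed as higher in 4 of 12 alternatives, which were the common median, dim genes left out, the trended variance and the 24 h arrays alone (adjusted p between 0.044 and 0.047). The Ndufaf assembly factors ranged from 0.03 for Ndufaf7 to 0.52 for Ndufaf1 (adjusted p = 0.099). Of the alternatives Ndufaf1 passed, as higher, only with the 24 h arrays alone (adjusted p = 0.018). For Ndufaf7 the probe sets disagreed, since a second one gave 0.69. Accessory subunits spanned -0.12 for Ndufc1 to 0.37 for Ndufa5. Ndufc1, a small membrane-arm subunit, passed as lower with the control level (-0.31, adjusted p = 0.018) or the array SD as covariate or the spread of the arrays as a block, and in no other fit run.

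Complex II, which is also succinate dehydrogenase of the citric acid cycle, had the smallest median, 0.08. Of its genes 0 of 4 passed (12.9% of all genes rose and 5.31% fell). Sdha, the flavoprotein that oxidises succinate, ranged from 10.01 to 10.33 (median 10.12) in vehicle rats and from 10.03 to 10.33 (median 10.08) in ANIT rats. The groups overlapped across nearly their whole range, with a difference of -0.03 ± 0.08 (SE, adjusted p = 0.86). Sdhb, the iron-sulfur subunit, differed by 0.14 (adjusted p = 0.46). With the control level as covariate all 4 differences were below 0 and 0 passed.

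In complex III, 1 of 7 genes rose (12.9% of all genes rose). Uqcrq, a small subunit close to cytochrome b, ranged from 10.95 to 11.20 (median 11.03) in vehicle rats and from 11.25 to 11.64 (median 11.35) in ANIT rats, a difference of 0.34 ± 0.11 (SE, adjusted p = 0.026). The groups did not overlap. Uqcrc1, a core subunit, and Uqcrfs1, the Rieske iron-sulfur protein that takes electrons from ubiquinol, differed by 0.19 and 0.15 (adjusted p = 0.29 and 0.34). With the control level as covariate Uqcrq differed by 0.20 (adjusted p = 0.13), and in the deposited values it did not pass without ANIT replicate 1 or 6 or vehicle replicate 2 or 4 (highest adjusted p = 0.080).

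In complex IV, cytochrome c oxidase, 1 of 18 genes rose and 1 fell (12.9% of all genes rose and 5.31% fell). Cox5b, a matrix-side subunit, ranged from 10.96 to 11.28 (median 11.07) in vehicle rats and from 11.24 to 11.51 (median 11.37) in ANIT rats, with a small overlap, a difference of 0.27 ± 0.09 (SE, adjusted p = 0.028). It did not pass with the control level as covariate (0.16, adjusted p = 0.12), nor without any 1 of ANIT replicates 1, 3 and 6 and vehicle replicates 2, 3 and 4 (highest adjusted p = 0.076). Cox5a, its neighbour in the complex, differed by 0.21 ± 0.08 (SE, adjusted p = 0.067) and passed only with the trended, robust variance (adjusted p = 0.026). Cox7a2l, which joins complex III to complex IV in supercomplexes, differed by 0.01 at 24 h (adjusted p = 0.96).

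Cox4i2 encodes the isoform of subunit 4 that is known from lung and from the response to low oxygen, and its signal was dim throughout. It ranged from 4.36 to 4.95 (median 4.47) in vehicle rats and from 4.05 to 4.35 (median 4.20) in ANIT rats at 24 h. All ANIT rats lay below all vehicle rats, by a narrow margin. The difference was -0.33 ± 0.10 (SE), a 1.25-fold fall, with an adjusted p of 0.0305. The difference was -0.41 with the control level as covariate (adjusted p = 0.0049) and -0.53 with the actin ratio (adjusted p = 0.026), but it did not pass after quantile normalization (-0.24, adjusted p = 0.17) or with only the 24 h arrays in the fit (adjusted p = 0.055). It also did not pass without ANIT replicate 3, 5 or 6 or vehicle replicate 2 or 3, where it ranged from -0.36 to -0.24 over all arrays left out (highest adjusted p = 0.093). Probe sets for sequences outside the rat genome, 23 in all, had single values between 2.34 and 3.10 over the arrays (median 2.61). At 120 h vehicle rats ranged from 4.08 to 4.66 (median 4.36) and ANIT rats from 4.30 to 4.65 (median 4.50), with full overlap and a difference of 0.12 (adjusted p = 0.62). Cox4i1, the general isoform of that subunit, differed by 0.22 at 24 h (adjusted p = 0.26).

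Some markers of other cell types in whole liver passed at 24 h, beside the 12.9% of all genes that rose and 5.31% that fell. Of the endothelial markers 2 of 4 fell, with array means of the list between 8.25 and 8.88 in vehicle rats and between 8.08 and 8.53 in ANIT rats. Of the stellate cell and fibroblast markers 1 of 7 fell (6.46 to 6.87 against 6.28 to 6.90), of the lymphocyte markers 2 of 6 fell (4.76 to 5.04 against 4.50 to 4.75), and of the neutrophil markers 2 of 6 rose (4.32 to 4.84 against 4.75 to 5.07). Hepatocyte markers gave 2 rises and 1 fall among 9, macrophage and Kupffer cell markers 1 rise among 5, brown fat markers 1 fall among 3, and the cholangiocyte, erythroid, striated muscle and germ cell lists 0 calls. Their part in the change of Cox4i2 or of the other genes was not tested.

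The remaining tissue isoforms of complex IV gave 0 calls in the deposited values. Cox6a2, Cox7a1 and Cox8b are the forms of heart and skeletal muscle, Cox6b2 and Cox7b2 are known from testis, and Ndufa4l2 is induced by low oxygen. Their means over all arrays were 4.75 for Cox6a2, 3.33 for Cox7a1, 3.62 for Cox8b, 5.41 for Cox6b2, 4.04 for Cox7b2 and 4.59 for Ndufa4l2. The striated muscle markers, 6 genes, averaged between 4.07 and 4.45 on every array and the 4 germ cell markers between 3.82 and 4.60. Cox6a2 overlapped between groups at 24 h, from 4.25 to 5.47 in vehicle rats and from 4.61 to 5.34 in ANIT rats, and it passed only in fits that adjusted for the array (0.46 with the control level, adjusted p = 0.0013). Their general counterparts differed by 0.26 for Cox6a1, 0.23 for Cox6b1, 0.17 for Cox7b, 0.22 for Cox8a and 0.18 for Ndufa4. Cox6c-ps1, annotated as a pseudogene of Cox6c, differed by -0.16 at 24 h and 0.32 at 120 h and passed at neither time. None of the general counterparts passed in the deposited values. Cox6b1 passed as higher in 4 of 12 alternatives and Cox7b in 2. For Cox7b all 6 ANIT rats (12.31 to 12.50) were above all 6 vehicle rats (12.16 to 12.28).

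At 120 h, in the repair phase, 0 of the 83 genes passed in the deposited values (limma), against 0.513% of all genes higher and 1.51% lower. An unadjusted p under 0.05 was found for 3 of the 83 (3.61%), against 13.9% of all genes. The groups were apart for 0 of the 83, against 0.558% of all genes with all ANIT rats above and 1.58% with all below. The control level as covariate gave 1 call among the 83, a lower one (1.79% of all genes were higher and 2.16% lower), and the actin ratio gave 0 (0.551% and 0.871%). The median difference was -0.07, and it changed sign to 0.16 without the 6 arrays of narrowest spread, 3 of which were ANIT 120 h rats, and to 0.03 with the control level as covariate. The ANIT rats were divided: on the 3 arrays of wide spread the mean of the 75 general genes lay between 9.83 and 10.09, and on the 3 of narrow spread between 9.43 and 9.53. The vehicle rats ran from 9.72 to 9.92, above the narrow arrays and partly within the range of the wide ones. The heat map shows this split across nearly all genes of the 5 complexes.

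**Figure D5:**
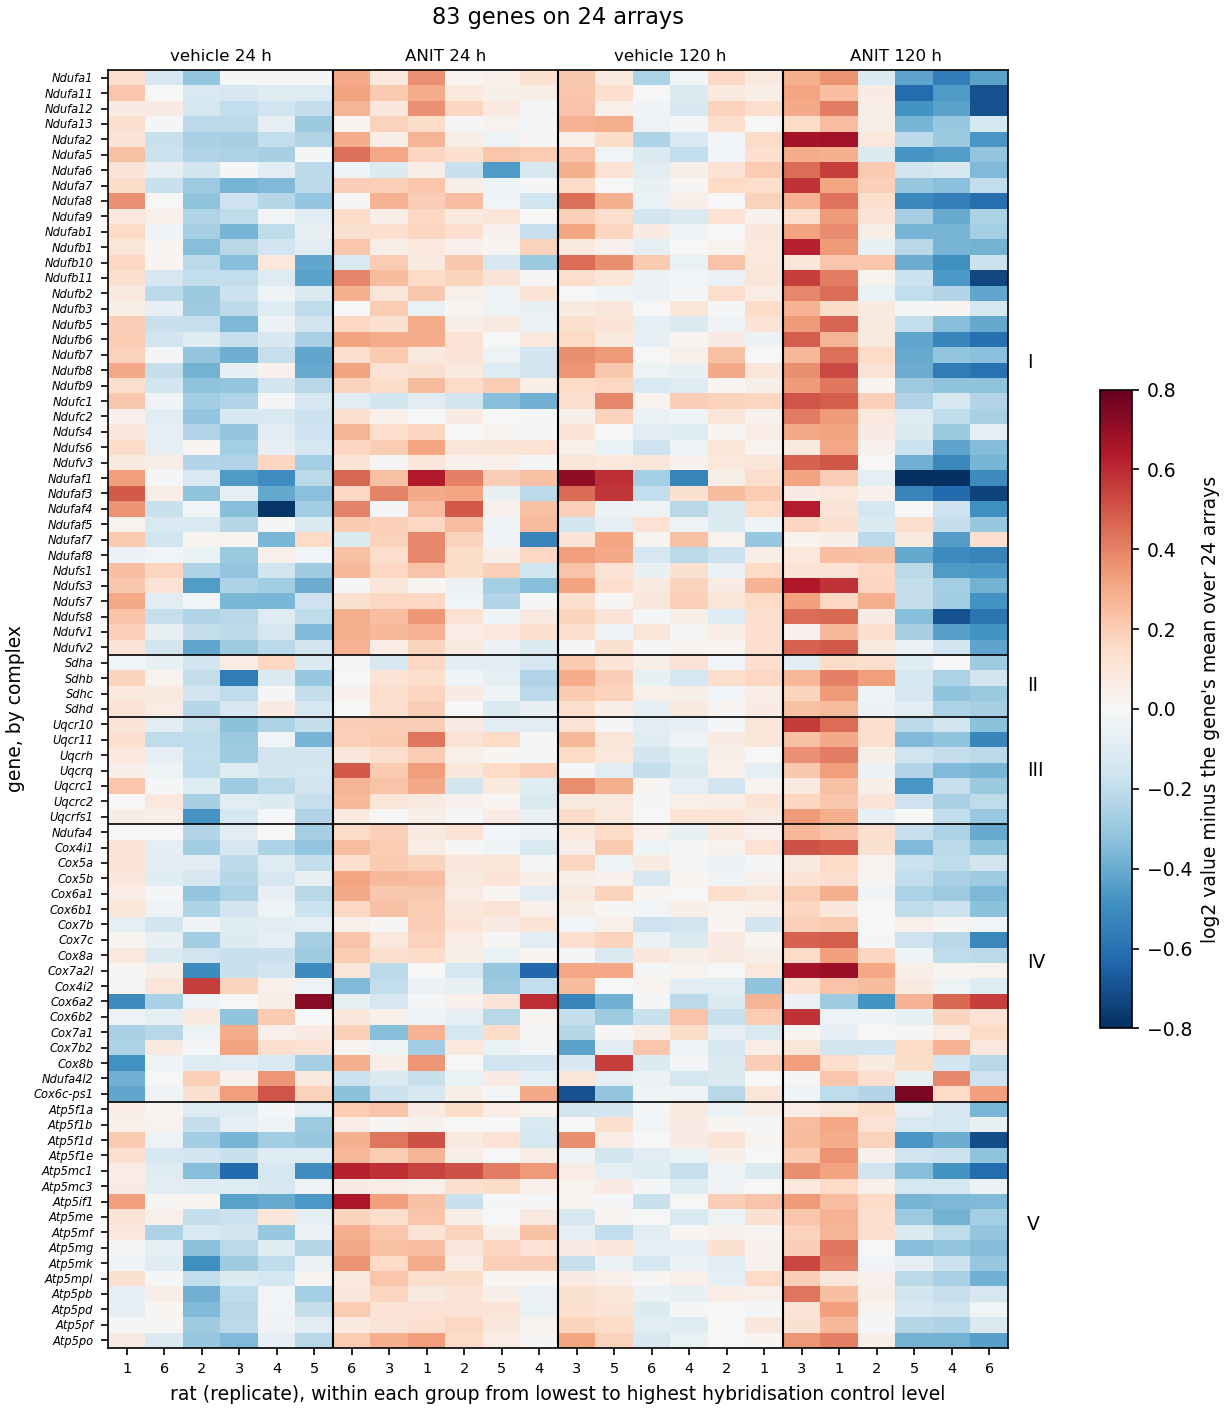
Log2 value of each of the 83 genes (rows, by complex) minus that gene's mean over the 24 arrays, on each array (columns), with arrays ordered within each group from the lowest to the highest hybridisation control level. Red is above and blue below the gene's mean. Most rows turn from red to blue from left to right within a group, Atp5mc1 is red in all 6 ANIT 24 h rats, and the ANIT 120 h group divides into 3 red or pale and 3 blue columns.

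The complex I assembly factor Ndufaf3 had the largest difference at 120 h. It ranged from 7.30 to 8.07 (median 7.73) in vehicle rats and from 6.76 to 7.58 (median 7.25) in ANIT rats, with overlap, and the difference was -0.52 ± 0.17 (SE, adjusted p = 0.13). It was lower past the threshold in 5 of 12 alternatives, among them quantile normalization (-0.42, adjusted p = 0.023) and the control level as covariate (-0.36, adjusted p = 0.045). Without the 6 narrow arrays the difference was -0.17 (adjusted p = 0.75). Of the marker lists, 2 of 6 cholangiocyte and 1 of 5 macrophage and Kupffer cell markers rose at 120 h and the other 9 lists gave 0 calls. The cholangiocyte list averaged between 4.90 and 5.26 on ANIT arrays and between 4.64 and 4.87 on vehicle arrays, and its part in these differences was not tested.

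The change in the ANIT effect from 24 h to 120 h was tested as an interaction, which uses the same arrays as the comparisons above. It passed as negative for 4 genes (4.82%) and as positive for 1 (1.20%), against 11.0% and 3.33% of all genes. By sign alone it was below 0 for 73 of the 83 and above 0 for 10. The median was -0.26, and -0.05 with the control level as covariate. Atp5mc1 had -0.85 ± 0.20 (SE, adjusted p = 0.0056), since its effect was 0.77 at 24 h and -0.07 at 120 h. Ndufaf1, an assembly factor for the membrane arm of complex I, had -0.95 ± 0.31 (SE, adjusted p = 0.038), Ndufaf3 had -0.77 ± 0.24 (SE, adjusted p = 0.034) and Ndufv1 had -0.50 ± 0.16 (SE, adjusted p = 0.036). Cox4i2 had 0.45 ± 0.15 (SE, adjusted p = 0.042). In the fit with the control level the interaction passed for Atp5mc1 (-0.49, adjusted p = 0.022), for Cox4i2 (0.58, adjusted p = 0.0095) and for Cox7a2l (0.51, adjusted p = 0.014), and not for Ndufaf1, Ndufaf3 or Ndufv1 (6.27% of all genes were higher and 5.45% lower). In the fit with the actin ratio it passed for Cox4i2 alone (1.44% and 1.82%). Without the 6 narrow arrays the Atp5mc1 interaction was -0.37 and did not pass (adjusted p = 0.23). With any 1 array left out the Atp5mc1 interaction passed. That of Ndufaf1 was lost without any 1 of 13 arrays, of Ndufaf3 without 12, of Ndufv1 without 13 and of Cox4i2 without 13 (highest adjusted p = 0.075, 0.067, 0.072 and 0.080). For the first 3 of these the arrays included ANIT 120 h replicates 4, 5 and 6, and for Cox4i2 vehicle 24 h replicates 2, 3 and 6.

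Vehicle rats at 120 h were compared with vehicle rats at 24 h. The control level averaged 10.63 in the 120 h vehicle group and 11.01 in the 24 h one, so this comparison does not show time alone. None of the 83 passed (0.00744% of all genes were higher and 0.00% lower; limma, with 10 of the 83 at an unadjusted p under 0.05). The median difference was 0.16, positive for 75 of 83, in a comparison that shares the 24 h vehicle arrays with the one at 24 h. In the fit with the control level the median was -0.01 and 0 passed (0.0149% of all genes were higher and 0.00% lower). The groups were apart for 0 of the 83, against 0.469% of all genes higher and 0.186% lower.

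Genes that serve the chain without bearing its subunit names were examined as 8 lists, whose counts at 24 h stand beside 12.9% of all genes that rose and 5.31% that fell (8.94% and 10.6% with the control level as covariate). Cytochrome oxidase subunit 1, the only mitochondrially encoded subunit with a single-gene probe set, differed by -0.11 at 24 h (adjusted p = 0.34). Of the chain components around cytochrome c, 1 of 4 rose, Cyc1 of complex III, by 0.41 ± 0.13 (SE, adjusted p = 0.025). Of the assembly factors for complexes II to V, 3 of 31 rose and 0 fell, and in the fit with the control level 2 were higher and 3 lower. Cox18, which inserts a mitochondrially encoded subunit of complex IV into the membrane, ranged from 7.08 to 7.82 (median 7.38) in vehicle rats and from 7.90 to 8.26 (median 8.10) in ANIT rats, without overlap, a difference of 0.69 ± 0.11 (SE, adjusted p = 9.3e-05). Sdhaf1, which helps load the iron-sulfur subunit of complex II, differed by 0.91 ± 0.18 (SE, adjusted p = 0.00076) with overlap. Both also passed in the fit with the control level, at 0.54 and 0.65. Of the other complex I assembly factors 1 of 9 rose, Timmdc1, by 0.37 ± 0.12 (SE, adjusted p = 0.028). Neither Cyc1 nor Timmdc1 passed in the fit with the control level (0.19 and 0.20, adjusted p = 0.12 and 0.14), where 0 of the 4 chain components and 0 of the 9 factors were higher and 1 of the 9 was lower. Cyc1 did not pass without ANIT replicate 1, 3 or 6 or vehicle replicate 3 or 4 (highest adjusted p = 0.076). Timmdc1 did not pass without ANIT replicate 3 or 6 or vehicle replicate 2, 3 or 4 (highest adjusted p = 0.077). In the interaction test of the ANIT effects 3 of the 31 factors passed as negative, Sdhaf1 and Cox18 among them. Of the 9 factors 1 passed as negative, Timmdc1, and its call was lost without any 1 of 6 arrays (highest adjusted p = 0.052). With the control level as covariate 1 of the 31 and 0 of the 9 passed as negative. Over all genes 11.0% passed as negative, and 5.45% in that fit.

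Of the ubiquinone genes 3 of 12 rose at 24 h, 2 fell and 7 did not pass. In the fit with the control level 1 was higher and 2 were lower. Coq8a, an atypical kinase needed for ubiquinone synthesis, ranged from 9.39 to 10.05 (median 9.72) in vehicle rats and from 7.76 to 8.21 (median 7.96) in ANIT rats. No rat overlapped, and the difference was -1.77 ± 0.12 (SE, adjusted p = 2.8e-10), larger in size than that of any of the 83 genes. Coq10b, a ubiquinone-binding protein, ranged from 8.50 to 9.48 (median 8.69) and from 9.56 to 10.35 (median 9.98), a rise of 1.22 ± 0.17 (SE, adjusted p = 1.3e-05). Its paralog Coq10a fell by 0.96 on the log2 scale (SE 0.14, adjusted p = 1.8e-05), also without overlap, and was named after its values were seen. With the control level as covariate the differences were -1.86, 1.01 and -1.05 and all passed. In the interaction test of the ANIT effects, 2 of the 12 passed as positive and 4 as negative (3.33% and 11.0% of all genes). Among them were Coq8a at 1.95 and Coq5, which was negative. With the control level as covariate 2 passed as positive and 0 as negative (6.27% and 5.45% of all genes).

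Among other donors of electrons 1 of 8 rose and 2 fell at 24 h (1 and 4 with the control level). Dhodh, the pyrimidine synthesis enzyme that reduces ubiquinone, rose by 0.57 ± 0.12 (SE, adjusted p = 0.0011). Gpd2, the mitochondrial glycerol phosphate dehydrogenase, fell at 24 h (-0.78 ± 0.20, SE, adjusted p = 0.0069) and was the 1 gene of the 8 lists to pass at 120 h (-0.84 ± 0.20, SE, adjusted p = 0.025). The 120 h call was lost without ANIT replicate 4, 5 or 6 or vehicle replicate 3 or 5 (highest adjusted p = 0.076). Of the citric acid cycle genes 3 of 11 rose at 24 h and 0 fell (3 and 1 with the control level), with Idh3g, the gamma subunit of NAD-dependent isocitrate dehydrogenase, at 0.63 ± 0.12 (SE, adjusted p = 0.00046) and citrate synthase, Cs, at 0.44 ± 0.10 (SE, adjusted p = 0.0031). Of the regulators of mitochondrial biogenesis and transcription 1 of 17 rose, Pprc1, a coactivator related to PGC-1, by 0.93 ± 0.19 (SE, adjusted p = 0.00079). In that list 2 fell (1 higher and 3 lower with the control level), Polg and Polg2, the catalytic and accessory subunits of the mitochondrial DNA polymerase, with differences of -0.49 ± 0.10 (SE, adjusted p = 0.0011) and -0.72 ± 0.17 (SE, adjusted p = 0.0028). Ppargc1a and Tfam, the better known regulators, differed by -0.11 and 0.05 (adjusted p = 0.62 and 0.87). In the interaction test 1 of the 8 donors, Dhodh, and 2 of the 11 citric acid cycle genes, Dld and Mdh2, passed as negative. So did 3 of the 17 regulators, Pprc1 and Tfb2m among them (11.0% of all genes). The call of Mdh2 was lost without any 1 of 18 arrays (highest adjusted p = 0.094) and in 8 of 11 alternatives. With the control level as covariate 1 donor and 0 citric acid cycle genes passed as negative, and 3 regulators passed as positive. Over all genes 5.45% passed as negative and 6.27% as positive in that fit.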

How the data were processed

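Liver RNA of 24 rats was measured, 1 array per rat. Per the labels' protocols, RNA was extracted with a miRVana kit and amplified with NuGEN Ovation before labelling with biotin. The deposited values are log2 expression values per probe set, and the submitters' processing notes name RMA and Partek, without settings or versions. Arrays give no read depth, so the number of rats limits the precision.

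Probe sets were named from the dated platform annotation: of 31139, 19068 had 1 gene, 573 several and 11498 none listed. The 83 genes came from 93 probe sets, and 11 probe sets shared by several genes were left out. No filter on low values was applied, so all 83 genes were tested. A model with a mean for each of the 4 groups was fitted to 13438 genes with limma 3.58.1 in R 4.3.3 (lmFit, eBayes), and p-values were adjusted by Benjamini-Hochberg over all genes, with 0.05 as the threshold. Array measures were the mean of 18 hybridisation control probe sets, the SD of each array, by which arrays were banded as narrow (6), middle (9) or wide (9), and the beta-actin 3′ to 5′ difference. Alternatives were other scalings, these measures as covariates or blocks, probe set averaging, a filter on dim genes, other variance settings and leaving out each array. The fitting was tested on simulated data. Genes named are up to 10 called members per direction at each time and up to 5 in the other comparisons, by size of change, chosen core subunits and isoform pairs, and up to 2 called genes of each pathway list by p. Atp5f1d, the peripheral stalk genes, Ndufc1, Cox6c-ps1, Coq10a, Polg2, Ppargc1a and Tfam were named after their values were seen. Members and lists were chosen with earlier results of these data known. Promoter windows are from RefSeq (GRCr8), matched by gene ID. Separate rats are replicates by the labels, which name no batch.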

Additional observations from a re-analysis of the deposited data

Results flagged for a closer look

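The ANIT effect differed between 120 h and 24 h for 5 of the 83 genes by the interaction test in limma. The difference of effects (120 h minus 24 h, log2) was -0.85 for Atp5mc1, -0.95 for Ndufaf1, -0.77 for Ndufaf3, -0.50 for Ndufv1 and 0.45 for Cox4i2. Atp5mc1, Ndufaf1 and Ndufv1 had positive differences at 24 h and negative ones at 120 h, and Ndufaf3 did so as well.

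Among 156 groups of 6 rats tested, 7 had 1 rat far from the others by Dixon's criterion, and chance flags about 1 in 20. For Ndufb9, vehicle 24 h replicate 1 was highest at 10.52, with the next rat at 10.23. For Ndufaf5, ANIT 24 h replicate 5 was lowest at 7.54, with the next at 7.73. For Cox4i2, vehicle 24 h replicate 2 was highest at 4.95, with the next at 4.58. For Ndufaf8, vehicle 24 h replicate 3 was lowest at 8.19, with the next at 8.44. ANIT 24 h replicate 4 stood apart for 3 genes, lowest for Ndufs1 at 8.67 and for Atp5f1b at 11.35 and highest for Cox6a2 at 5.34.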

How the results depend on the processing

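No paired analysis was possible because each rat number occurs in 1 group. The number of the 83 genes that passed at 24 h was 10 in the deposited values (2451 of all 13438 genes, with the count over all genes in brackets hereafter). It was 4 with the control level as covariate (2625), 6 with the array SD (2905), 1 with the beta-actin ratio (907) and 4 without the 6 narrow arrays (1554). With the array band as a block it was 4 (2581), and with both covariates, a setting chosen after seeing the data, 3 (1773). It was 11 after quantile normalization (2872), 13 with a common median (2744) and 13 without dim genes (2520 of 10078). Averaging probe sets gave 14 (2389), the 24 h arrays alone 14 (2243) and a trended, robust variance 15 (2502). Leaving out 1 array gave 2 to 25 (1829 and 3534 in those fits). At 120 h it was 0 (272), with 0 whichever array was left out. It was 1 under quantile normalization (501), a common median (407), the control level (530), the array SD (652) and the array band (392). For the interaction it was 5 (1924), and it was 3 under quantile normalization (2201), the control level (1576) and the array SD (1818). It was 1 with the beta-actin ratio (438), without the narrow arrays (852), with the array band (1357) and with both covariates (1091). A common median gave 7 (2186), averaging probe sets 9 (1869), leaving out dim genes 8 (2050 of 10078) and a trended, robust variance 12 (1974). Leaving out 1 array gave 1 to 19. It was 19 without ANIT 120 h replicate 1 (2270). It was 1 without ANIT 120 h replicate 5 (1504), ANIT 24 h replicate 6 (1430) or vehicle 24 h replicate 2 (1744). Between the vehicle groups it was 0 throughout. No named difference changed sign while called. Why the counts moved was not tested. Dim probe sets, Cox4i2 among them, were not tested once dim genes were left out.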

Other observations

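Some probe sets outside the 83 bear on the same proteins, and their values at 24 h are given here as log2 differences without a test. Of those shared by several genes, the one for Ndufa10 and its copy differed by 0.40, the one for Cox7a2 and its copy by 0.21 and the one for Cox6c by 0.17, in each case with all ANIT rats above all vehicle rats. The one for Ndufs5 differed by 0.28, and the one for Uqcrb by 0.12. Of the genes with several probe sets, 2 further ones for Atp5if1 differed by 0.49 and 0.52, against 0.32 for the one used.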
